A study of Mus musculus with 4 samples.

Results

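The matrix metalloproteinases (Mmp), the related Adamts and Adam proteases and the tissue inhibitors of metalloproteinases (Timp) were followed in C2C12 myoblasts depleted of Fxr1, the mRNA of an RNA-binding protein. The genes were chosen from these families with earlier results of these data known, and a probe was taken where the gene name on the array matched. The list does not hold every member, and 27 further genes, Adamtsl among them, are given apart below. The listed genes comprise 36 of the 36391 gene names on the array, 17 Mmps, 9 Adamts, 6 Adams and 4 Timps, read by 47 of the 55681 probes. C2C12 is a clonal line of mouse myoblasts, which divide while growth factors are present and can fuse into myotubes. Cells of both conditions were transiently transfected with siRNA and collected 48 h later, siFxr1 being directed against Fxr1, and siControl being a random sequence of matched GC content. Each of the 2 experiments gave 1 array per condition, so that 4 one-colour Agilent arrays were analysed, 2 for siFxr1 and 2 for siControl. The array barcodes in the sample titles place both arrays of an experiment on 1 slide, so that slide and experiment cannot be told apart. The methods count the experiments as biological replicates of transfected cultures, and a transient knockdown is measured over the whole culture. In such bulk RNA, fewer cells of a type and less RNA per cell cannot be told apart.

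Metalloproteinases of these families hold a zinc ion in their catalytic site. Mmps cleave collagens and other matrix proteins, either as secreted enzymes or, for the membrane-type members, at the cell surface. Adamts are secreted proteases that process procollagens or cleave proteoglycans, and Adams cut membrane proteins such as cytokines, growth factors and Notch ligands off the cell surface. Timps bind the active site of these enzymes and block it. In skeletal muscle, these proteins are known for their part in matrix remodelling, in the migration of myoblasts and in their fusion.

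The targeted gene was checked first. At 1 probe, the quantile-normalized log2 signal of Fxr1 was 10.15 and 10.77 on the siFxr1 arrays and 13.84 and 13.71 on the siControl arrays, and the 2 probes of the gene were lower in siFxr1 by log2 differences of -3.31 (SE 0.29) and -3.61 (SE 0.28). Between 45.4% and 52.9% of all probes were well above background on an array, by the scanner software's own mark. Of 8 myoblast markers, 7 were measured, and Myf5 was well above background on no array. All 7 myotube markers were measured, with a median log2 difference of 2.05 between the experiments, experiment 1 being higher. Of 8 leukocyte markers, 4 (Csf1r, Itgam, Cd3e and Elane) were well above background on all 4 arrays, whereas Ptprc and Emr1, which define leukocytes and macrophages, were so on no array. The summed signal of those 4 was 13.22 and 13.95 in siFxr1 and 12.74 and 14.11 in siControl on the log2 scale. Lyz2 was well above background only on the siControl array of experiment 1, and S100a8 only on the siFxr1 array of experiment 2. Of 3 epithelial markers, Krt8 was measured, and Cdh1 and Epcam were well above background on no array. Among endothelial, adipocyte and fibroblast markers, 3 of 4, 1 of 3 and 2 of 4 were measured. Kdr, Cdh5, Fabp4 and Pdgfra were well above background on all 4 arrays. Krt8, Pecam1 and Postn counted as measured only through the siFxr1 arrays.

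Most of the Timps, Adams and membrane-associated enzymes were measured in these cells, whereas most of the secreted collagenases, stromelysins and matrilysin were not. A gene was taken as measured where the 2 arrays of siFxr1, of siControl or of each were well above background, which held for 21 of the 36 genes and for 19158 gene names in all. These are 8 of 17 Mmps, 4 of 9 Adamts, 6 of 6 Adams and 3 of 4 Timps. Of the 36, 20 genes were well above background on all 4 arrays, 4 on 2 arrays, 3 on 1 and 9 on 0. The 9 genes were Mmp8, Mmp3, Mmp7, Mmp12, Mmp16, Timp4, Adamts9, Adamts15 and Adamts12, with log2 signals that reach no further than 4.73 on any array. A signal depends on the probe as well as on the RNA, so that levels were not ranked between genes.

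**Figure D1:**
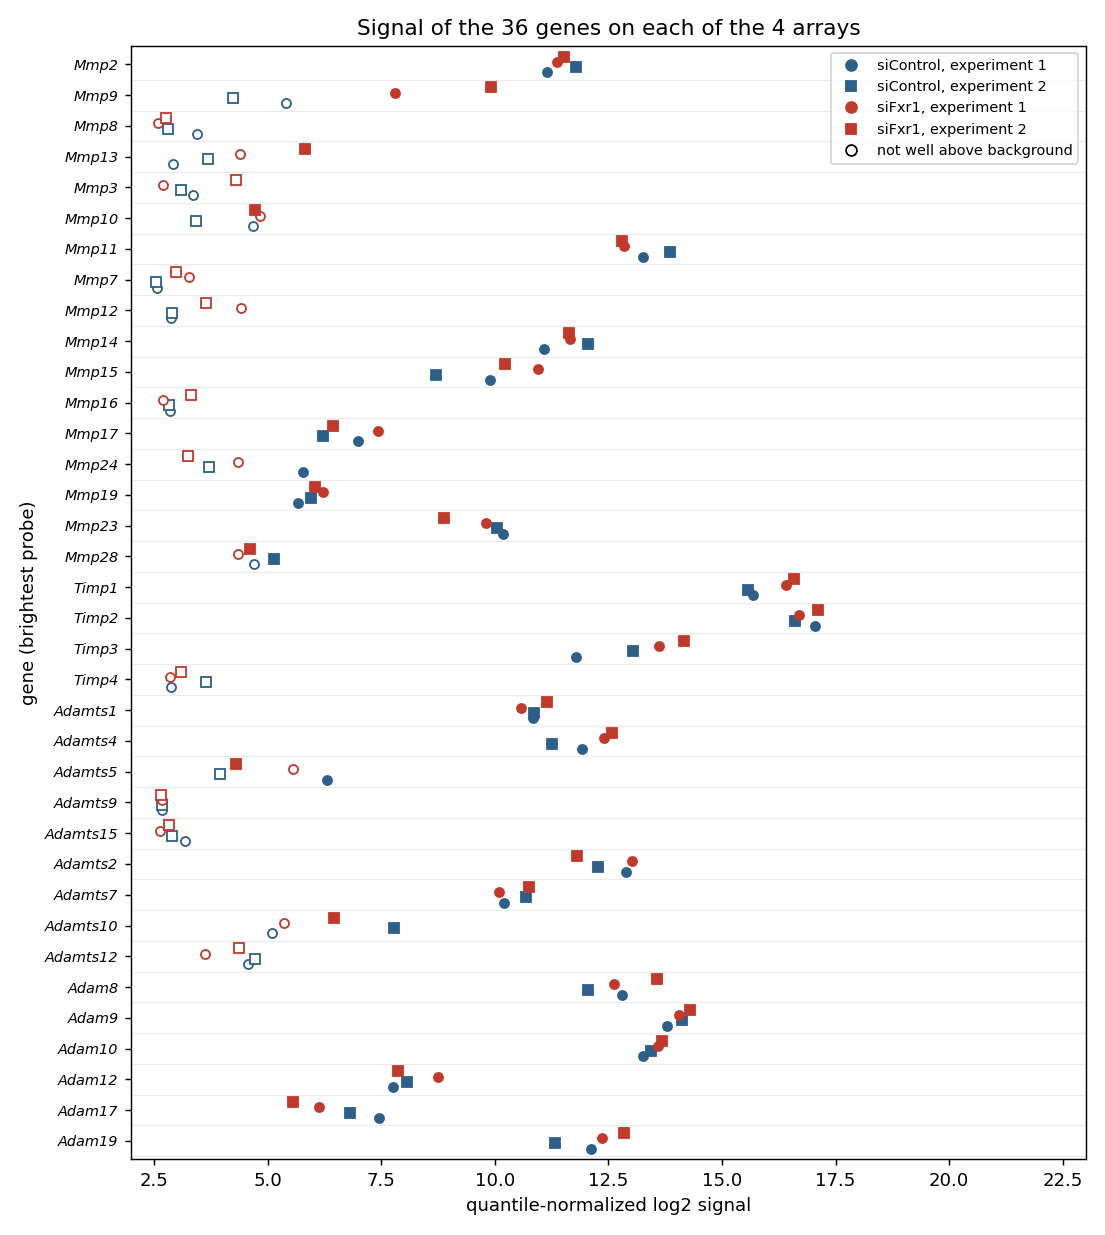
Quantile-normalized log2 signal (x axis) of each of the 36 genes (y axis, 1 probe per gene) on the 4 arrays, with siFxr1 in red, siControl in blue, experiment 1 as circles, experiment 2 as squares, and open symbols where the probe was not well above background. For Mmp9, both siFxr1 points (7.81 and 9.92) are filled and lie above both open siControl points (5.40 and 4.24).

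No probe of the family passed the test between siFxr1 and siControl. By limma without the experiment as a term, 0 of the 47 probes had an adjusted p under 0.05, and their adjusted p-values lay between 0.95 and 0.999. The same held for all 55627 probes fitted, of which 0% were called, Fxr1 included. Unadjusted p-values were under 0.05 for 6 of the 47 probes, or 12.8%, against 4.96% of all probes. The 6 were probes of Mmp9, Timp1, Adam17, Mmp7, Mmp12 and Mmp24. Those of Mmp7 and Mmp12 were well above background on no array, and that of Mmp24 only on the siFxr1 array of experiment 2. With the experiment as a replicate block, 0 of the 47 were called again, with a lowest adjusted p of 0.535. Of them, 8, or 17%, had an unadjusted p under 0.05, against 8.85% of all probes. These included the dim probes of Mmp12, Mmp13 and Mmp24. On simulated arrays whose experiments were set as far apart as here, limma without the block called no probe that had been made to differ, so that the absence of calls from it does not show that a gene is level. The fit with the block did not call Fxr1 either (limma adjusted p = 0.535), so that its absence of calls does not show this either. With 2 arrays per condition, an exact two-sided permutation test of a single gene cannot go below p = 0.333. The differences below are therefore given as values of each experiment, and SE values come from the limma fit without the block. That fit has no term for the experiment, so that its SE also carries the difference between the experiments. With the block, the SE was 0.28 against 0.56 for Timp3, 0.23 against 0.57 for Mmp15 and 0.19 against 0.37 for Adam17. It was 0.94 against 0.95 for Mmp9 and 0.21 against 0.17 for Timp1. The limma adjusted p of each of these genes with the block was 0.535.

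Differences of at least 2-fold in the same direction in both experiments were counted as a description, with no test. Mmp9, Mmp15 and Timp3 were at least 2-fold higher in siFxr1 in both experiments, or 14.3% of the 21 measured genes, against 2.11% of the 19158 gene names. Mmp9 counted as measured only through the siFxr1 arrays, where it was high, so that it could not have entered as a gene without a difference. Among genes well above background on all 4 arrays, the share was 2 of 20, or 10%, against 1.22% of 17813 gene names. Adam17 was at least 2-fold lower in both experiments, or 4.76% of the 21, against 1.5% of all, and 5% against 1.14% among the genes on all 4 arrays. Of the 21 genes, 10 (47.6%) were higher in both experiments, against 34.1% of all gene names. In contrast, 3 (14.3%) were lower in both, against 29.9%, and the other 8 (38.1%) had opposite signs in the experiments, against 36.1%. The siFxr1 and siControl arrays did not overlap for 11 of the 21 genes (52.4%), 8 of them higher in siFxr1, against 30.8% of all gene names. Without Mmp9, 9 of 20 genes (45%) were higher in both experiments, against 33.3% of the genes on all 4 arrays, and the arrays of 10 of 20 (50%) did not overlap, against 29.9%. The median log2 difference of the 21 genes was 0.29, against 0.03 over all gene names, and that of the 20 genes was 0.25, against 0.02. The further family members given below had a median of -0.03 over 11 measured genes, and 0 of them passed 2-fold in both experiments. Only 7 of these 11 were well above background on all 4 arrays, and the others counted as measured only through the siFxr1 arrays.

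**Figure D2:**
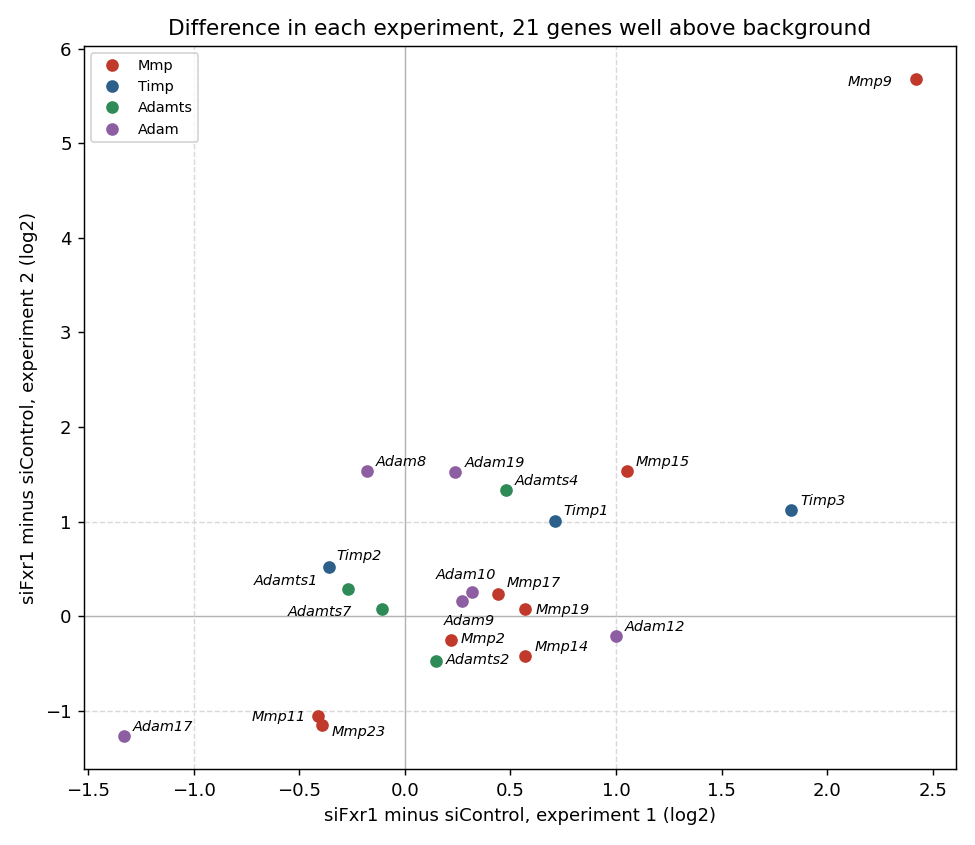
Difference in log2 signal between siFxr1 and siControl in experiment 1 (x axis) and in experiment 2 (y axis) for the 21 measured genes, coloured by family, with dashed lines at a 2-fold difference. Mmp9, Mmp15 and Timp3 lie beyond the lines in the upper right, and Adam17 beyond them in the lower left.

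The gelatinases Mmp2 and Mmp9, which cleave denatured collagen and the collagen of basement membranes, stood apart from each other. Mmp9 had log2 signals of 7.81 and 9.92 on the siFxr1 arrays of experiments 1 and 2 and of 5.40 and 4.24 on the siControl arrays. Both siFxr1 arrays were therefore above both siControl arrays. The probe was well above background on both siFxr1 arrays and on neither siControl array, so that the siControl level is only a bound, and the fitted log2 difference of 4.05 (SE 0.95, limma adjusted p = 0.967) does not set the size. Each siControl array was therefore read at its lowest signal well above background, or at the probe's own where that was higher. Against these values, 5.40 and 4.65, Mmp9 was 5.34-fold higher in siFxr1 in experiment 1 and 38.6-fold in experiment 2. These folds are not strict lower bounds. On the siControl array of experiment 2, the Adamts12 probe read 4.73 and was still not well above background. The folds also hold only for the software's background correction. Without it, the fitted log2 difference was 2.19. With a normexp correction in its place, it was 2.38, with 1.30 in experiment 1 and 3.46 in experiment 2.

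The probe of Mmp9 (chr2:164780620-164780679 of mm9, plus strand) was printed in 10 spots per array, which shows how far the reading itself varied. The start of the 60 bases laid on the array is shown to identify what was read.
Mmp9 probe A_52_P507214, first 30 bases: ccaaccttttccagctactttagtcaatca
The 10 spots lay between 7.62 and 8.02 on the siFxr1 array of experiment 1 and between 9.75 and 10.13 on that of experiment 2, and all were well above background. On the siControl arrays, 9 spots lay between 5.14 and 5.78 in experiment 1, of which 4 were well above background, and 7 spots lay between 4.06 and 4.51 in experiment 2, of which 0 were. The remaining spots had been marked as outliers by the software. Spots of an array share its RNA and are not replicates of a condition, and their ranges did not overlap between any of the 4 arrays.

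**Figure D3:**
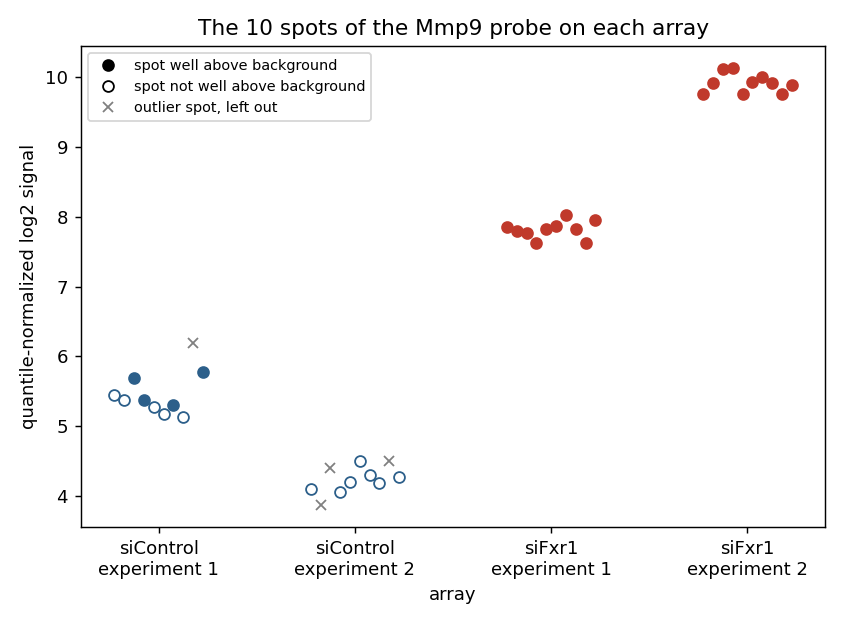
Quantile-normalized log2 signal (y axis) of each spot of the Mmp9 probe on the 4 arrays (x axis), with filled circles for spots well above background, open circles for the others and crosses for outlier spots that were left out. The spots of a single array lie within a narrow range, from 9.75 to 10.13 on the siFxr1 array of experiment 2, and the 2 siFxr1 arrays lie above the 2 siControl arrays.

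Mmp2, by contrast, was measured on all 4 arrays and did not separate the conditions. Its log2 signals were 11.38 and 11.53 in siFxr1 and 11.16 and 11.78 in siControl. It was higher in siFxr1 by 0.22 in experiment 1 and lower in experiment 2 (-0.25), so that the fitted difference was -0.02 and turned positive under other background corrections.

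The membrane-type Mmps cut matrix and other proteinases at the cell surface, and Mmp14 is the main activator of the Mmp2 precursor. Mmp15, which shares this membrane anchorage, had log2 signals of 10.96 and 10.23 in siFxr1 and 9.90 and 8.70 in siControl (chr8:97897703-97897762 of mm9, plus strand). Both siFxr1 arrays were above both siControl arrays, and the differences within an experiment were 1.05 in experiment 1 and 1.53 in experiment 2. The fitted log2 difference was 1.29 (SE 0.57, adjusted p = 0.975). It was 1.89 without the siControl array of experiment 1 and 0.69 without that of experiment 2, and without the software's background correction Mmp15 fell short of 2-fold in experiment 1, with a log2 difference of 0.90.

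Mmp14 had log2 signals of 11.66 and 11.64 in siFxr1 and of 11.08 and 12.06 in siControl, so that the siFxr1 arrays lay within the range of the siControl arrays. Its differences were 0.57 and -0.42. Mmp17, a membrane-type enzyme held by a lipid anchor, differed by 0.44 and 0.23. The remaining membrane-type members were dim. Mmp16 was well above background on no array. The brighter probe of Mmp24 was so only on the siControl array of experiment 1 and its second probe only on the siFxr1 array of experiment 2, and they disagreed, with log2 differences of -0.95 and 1.37.

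Of the other measured Mmps, Mmp11 and Mmp23 were lower in siFxr1 in both experiments and Mmp19 was higher. Mmp11, a stromelysin that is activated inside the cell by furin, differed by -0.41 and -1.05, and its second probe went the same way. Mmp23 differed by -0.39 and -1.15, and Mmp19 by 0.57 and 0.08. Mmp28 was well above background only on the arrays of experiment 2, with log2 signals of 4.36 and 4.62 in siFxr1 and of 4.71 and 5.14 in siControl.

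The collagenases, stromelysins and matrilysin that lie side by side on chromosome 9 were at or near background. Mmp7, Mmp3, Mmp10, Mmp8, Mmp12 and Mmp13 lie between bases 7282762 and 7697700 of chromosome 9 in mm9 by their probes' positions. The cluster is known for its response to cytokines and growth factors through AP-1, a transcription factor of Fos and Jun proteins. Of these 6 genes, 0 were measured in both arrays of a condition and 4 were well above background on no array. Log2 signals of their 7 probes lay between 2.55 and 5.83.

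Mmp13, a collagenase of interstitial collagens, had log2 signals of 4.39 and 5.83 in siFxr1 and 2.92 and 3.70 in siControl. Only the siFxr1 array of experiment 2 was well above background, so that no fold is given. Mmp10, a stromelysin, had log2 signals of 4.84 and 4.73 in siFxr1 and 4.68 and 3.42 in siControl. It was again well above background only on the siFxr1 array of experiment 2. Mmp12, the macrophage elastase, has 2 probes that disagreed at this level, with log2 differences of 1.15 and -0.37.

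The promoters of this cluster were read for the letters of an AP-1 site, TGANTCA, which read the same on both strands. Windows ran from 250 bases before to 50 bases after the transcription start, taken from RefSeq on GRCm38.p6, and were held for 24 of the 36 genes. The letters were found in 6 of these 24 genes, in 6 of their 29 windows, or 20.7%, against 7.81% of all 32851 windows. The 6 stretches, on the plus strand, are shown with the match in capitals because 5 of them belong to genes of this cluster.
Mmp10 (chr9:7502259-7502305): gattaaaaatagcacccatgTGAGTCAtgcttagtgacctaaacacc
Mmp12 (chr9:7347310-7347356): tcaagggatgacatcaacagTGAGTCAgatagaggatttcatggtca
Mmp13 (chr9:7272459-7272505): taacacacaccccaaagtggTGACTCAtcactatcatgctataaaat
Mmp3 (chr9:7445756-7445802): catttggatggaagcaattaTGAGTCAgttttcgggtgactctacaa
Mmp7 (chr9:7692007-7692053): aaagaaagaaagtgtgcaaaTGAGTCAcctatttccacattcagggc
Adam19 (chr11:46055833-46055879): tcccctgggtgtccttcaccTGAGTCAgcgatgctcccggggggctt
In the 5 Mmps, the match lies between 63 and 29 bases before the start, and in Adam19 between 131 and 125 bases before it. Of the 6 genes, only Adam19 was measured, with log2 differences of 0.24 and 1.52. A match of letters is a description and does not show that a factor binds there.

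Of the 3 measured Timps, each read at its brightest probe, Timp1 and Timp3 were higher in siFxr1 in both experiments. Timp3, which binds to the matrix and inhibits Adam17 as well as Mmps, had log2 signals of 13.62 and 14.16 in siFxr1 and of 11.78 and 13.04 in siControl (chr10:85811696-85811755 of mm9, plus strand). Both siFxr1 arrays were above both siControl arrays. The differences within an experiment were 1.83 in experiment 1 and 1.12 in experiment 2, or 3.56-fold and 2.17-fold. The fitted log2 difference was 1.47 (SE 0.56, adjusted p = 0.975). It was 2.10 without the siControl array of experiment 2 and 0.85 without that of experiment 1.

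Timp1, a secreted inhibitor of many Mmps, had log2 signals of 16.40 and 16.59 in siFxr1 and of 15.69 and 15.58 in siControl (chrX:20451802-20451861 of mm9, plus strand). The pairs did not overlap, and the spread within each condition was small beside the difference between them, 0.71 in experiment 1 and 1.01 in experiment 2. The fitted log2 difference was 0.86 (SE 0.17), and its adjusted p of 0.95 was the lowest of the family. In a fit of the 4 siFxr1 over siControl ratios, Timp1 was the only member called, with an adjusted p of 0.0386 and a B value of 1.08, but these ratios share arrays and that fit understates the error. Timp2, which also takes part in the activation of Mmp2 by Mmp14, had log2 signals of 16.69 and 17.12 in siFxr1 and of 17.05 and 16.60 in siControl. The siFxr1 and siControl arrays of this probe overlapped, with differences of -0.36 and 0.52. A second, dimmer probe of Timp2, also well above background on all 4 arrays, did not go the same way in experiment 1. It read 15.39 and 15.79 in siFxr1 and 15.18 and 15.24 in siControl, without overlap, and differed by 0.22 and 0.56. Timp4 was well above background on no array.

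**Figure D4:**
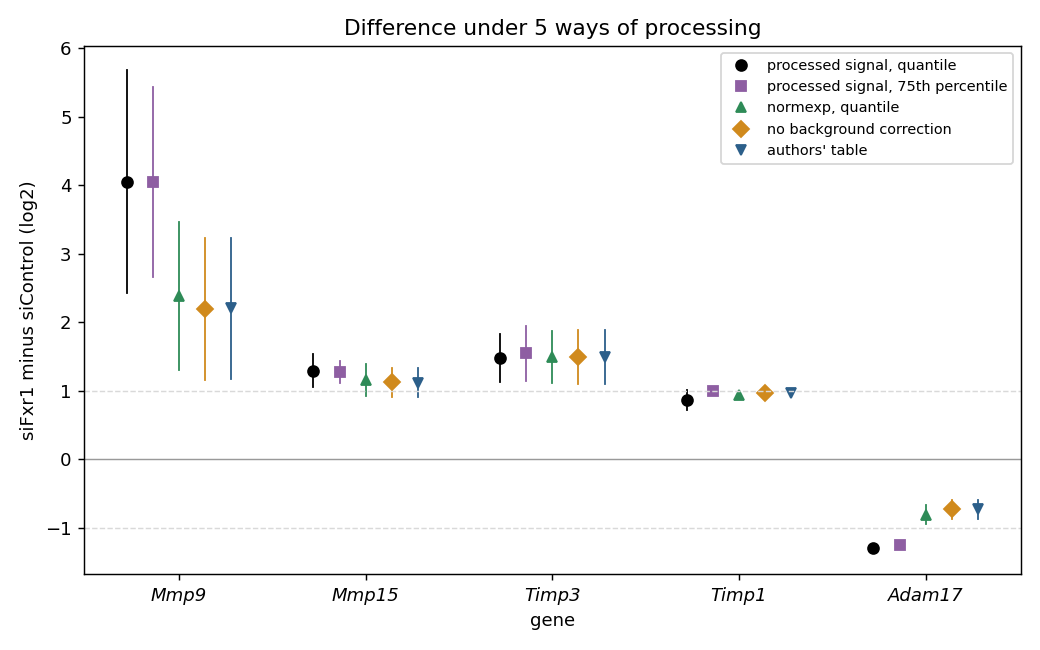
Difference in log2 signal between siFxr1 and siControl (y axis) for 5 genes (x axis) under 5 ways of processing the intensities, with a symbol at the mean of the 2 experiments, a line joining their values and dashed lines at a 2-fold difference. Mmp9 moves from 4.05 to between 2.19 and 2.38 and Adam17 from -1.30 to between -0.81 and -0.73 without the software's background correction, whereas Timp3 stays between 1.47 and 1.55.

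Of the 4 measured Adamts, only Adamts4 had the same sign in both experiments. Of the aggrecanases and versicanases, which cleave large proteoglycans, Adamts4 had log2 signals of 12.40 and 12.58 in siFxr1 and of 11.92 and 11.25 in siControl. It was higher in both experiments, by 0.48 and 1.33. Adamts1 differed by -0.27 and 0.29. Adamts2, which removes the N-terminal propeptide of procollagens, differed by 0.15 and -0.47, and Adamts7 by -0.11 and 0.08. Adamts5 was well above background on 1 array of each condition, and its 2 probes disagreed, with log2 differences of -0.20 and -1.04. The 2 probes of Adamts12, which were well above background on no array, had log2 differences of -0.65 and 0.16.

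Among the Adams, which were all measured, Adam17 was lower in siFxr1 in both experiments and Adam10 slightly higher. Adam17, also known as the TNF-alpha converting enzyme, sheds TNF-alpha and ligands of the EGF receptor. Its brighter probe had log2 signals of 6.13 and 5.55 in siFxr1 and of 7.45 and 6.82 in siControl, with both siFxr1 arrays below both siControl arrays. The differences were -1.33 in experiment 1 and -1.27 in experiment 2, or 2.51-fold and 2.42-fold lower. The fitted log2 difference was -1.30 (SE 0.37, adjusted p = 0.975).

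The second probe of Adam17 had log2 signals of 6.29 and 4.53 in siFxr1 and of 6.72 and 5.96 in siControl, with differences of -0.43 and -1.43. It was not well above background on the siFxr1 array of experiment 2. Both probes lie on the minus strand of chromosome 12 and share 52 of their 60 bases, so that they read nearly the same stretch of the transcript. Their first 30 bases are shown, with the bases common to both stretches in capitals.
A_55_P2128188 (chr12:21329378-21329437 of mm9): ttgatgtcTGTGAATTACTAATAAAGCTAC
A_55_P1999097 (chr12:21329370-21329429 of mm9): TGTGAATTACTAATAAAGCTACgcacatgt
Without the software's background correction, the log2 difference of the brighter probe was -0.73, and Adam17 no longer passed 2-fold in either experiment.

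Adam10, which cleaves Notch, its ligands and cadherins, had log2 signals of 13.59 and 13.69 in siFxr1 and of 13.27 and 13.43 in siControl. The arrays did not overlap, but the fitted difference was only 0.29 on the log2 scale. Adam12, which is expressed by fusing myoblasts, had log2 signals of 8.76 and 7.87 in siFxr1 and of 7.77 and 8.08 in siControl, with differences of 1.00 and -0.21. Its other 2 probes had fitted log2 differences of 0.24 and 0.07. The first of these, also well above background on all 4 arrays, had the opposite sign in each experiment, with -0.37 and 0.86. The other was well above background on no array. Adam19 and Adam8 differed mainly in experiment 2, by 1.52 and 1.53, against 0.24 and -0.18 in experiment 1. Adam9 differed by 0.27 and 0.16.

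The arrays of experiments 1 and 2 were compared next. With the condition as a term, limma called 0 of the 47 probes between experiments 1 and 2, with a lowest adjusted p of 0.147, and 0% of all probes. Unadjusted p-values were under 0.05 for 12 of the 47 probes, or 25.5%, against 20.1% of all probes. Among the 21 measured genes, 11, or 52.4%, had the same sign between the experiments in both conditions, against 74.6% of all gene names.

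The 6 genes that differed most between the experiments were mostly dim. Adamts10 had log2 signals of 5.37 in siFxr1 and 5.10 in siControl in experiment 1, and of 6.47 and 7.79 in experiment 2, a difference of -1.90 between experiments. Adamts5 went the other way, with 5.55 and 6.30 in experiment 1 and 4.30 and 3.95 in experiment 2, a difference of 1.80. Mmp24 had 4.34 and 5.79 in experiment 1 and 3.26 and 3.72 in experiment 2, a difference of 1.58, whereas its second probe differed by -0.45. None of these genes was well above background on both arrays of a condition. Mmp13 followed, with a difference of -1.11 from the signals given above, and Mmp15 with 0.96. Adamts2 was bright, with log2 signals of 13.03 in siFxr1 and 12.88 in siControl in experiment 1 and of 11.80 and 12.27 in experiment 2, a difference of 0.92. Markers of myotubes were higher in experiment 1 as well, with a median difference of 2.05, and their part in these differences was not tested.

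**Figure D5:**
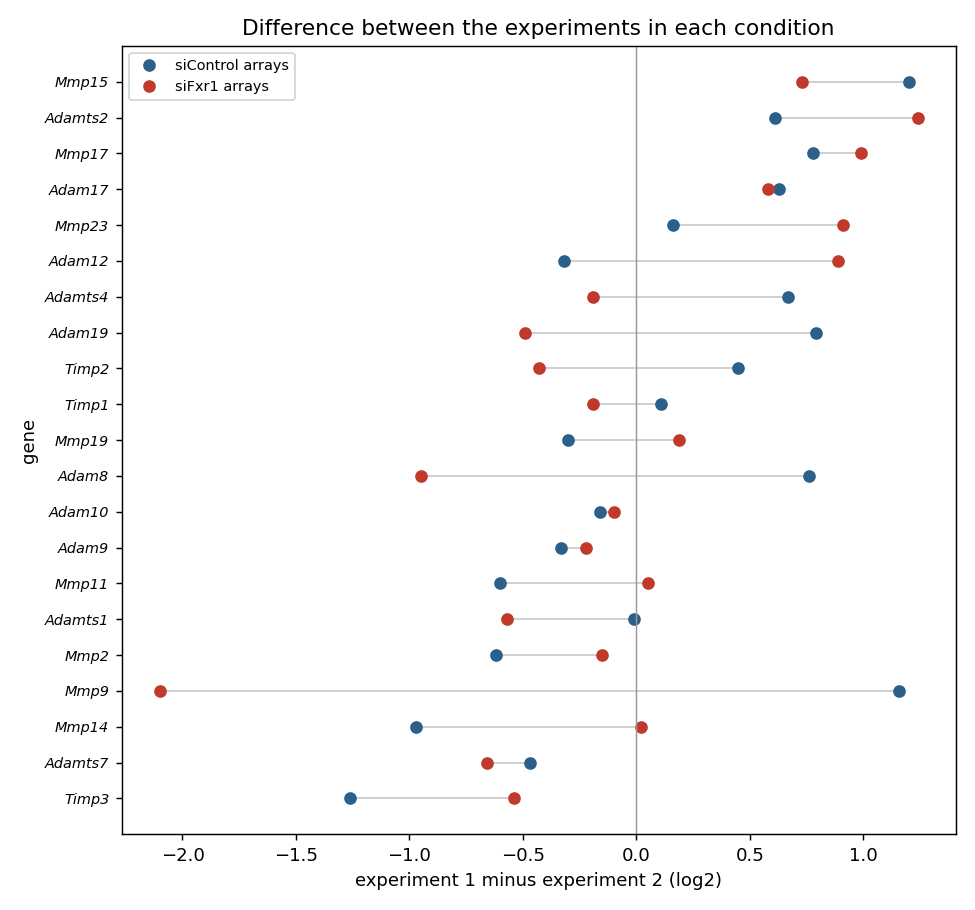
Difference in log2 signal between experiment 1 and experiment 2 (x axis) for each of the 21 measured genes (y axis), with the siControl arrays in blue and the siFxr1 arrays in red, joined by a line. For Mmp15 (1.20 and 0.73) and Adamts2 (0.61 and 1.24), both conditions were higher in experiment 1, and for 11 of the 21 genes both points lie on the same side of 0.

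Genes around these families were read from lists of further members, of activators and inhibitors, and of proteins that the enzymes cleave. Of 27 further Mmp, Adamts, Adamtsl and Adam genes, 11 were measured, with 3 higher and 3 lower in siFxr1 in both experiments. Adamts6, Adamts8, Adamts16 and Adamtsl1 counted as measured only through the siFxr1 arrays. The 3 higher genes were Adamts6 (0.51 and 0.58), Adamts14 (0.36 and 1.67) and Adamtsl1 (1.62 and 0.51). The 3 lower genes were Adamtsl4 (-0.73 and -1.65), Adamtsl5 (-0.89 and -1.37) and Adam23 (-0.26 and -0.77). Of the 11, 0 were called or passed 2-fold in both, and their median log2 difference was -0.03. At 1.5-fold in both experiments, 0 of the 11 were higher and 2, Adamtsl4 and Adamtsl5, were lower. Of the 19158 gene names, 1071 were higher and 996 lower at this limit. Over all gene names, 34.1% were higher and 29.9% lower in both experiments. Of 12 activators, inhibitors and anchors, 8 were measured. Pcsk6, a proprotein convertase, had log2 signals of 6.12 and 4.78 in siFxr1 and of 4.94 and 2.67 in siControl. It was well above background only on the siFxr1 arrays and counted as measured only through them. The arrays of the conditions overlapped, so that no fold is given. Rhbdf2, which is needed for the maturation of Adam17, differed by -0.13 and 1.44, and its relative Rhbdf1 by 0.40 and 0.67.

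Of 23 cleaved matrix and surface proteins, 22 were found on the array by name and 18 were measured. Of the 18, 10 were higher and 3 lower in siFxr1 in both experiments, against 34.1% and 29.9% of all gene names, and 0 were called. Sdc1, a cell-surface proteoglycan, had log2 signals of 14.05 and 14.32 in siFxr1 and of 12.72 and 13.01 in siControl. Its arrays did not overlap, and the differences were 1.33 and 1.30. Sdc4, a proteoglycan of focal adhesions, differed by 0.75 and 1.83, short of 2-fold in experiment 1. The 3 lower genes were Tnfrsf1a (-0.42 and -0.27), Sparc (-0.19 and -0.05) and Cdh15 (-0.17 and -0.01).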

How the data were processed

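The authors hybridized Cy3-labelled RNA on Agilent mouse arrays and deposited the spot intensity of each array from Agilent Feature Extraction 10.7.3.1, background-corrected within the array and not normalized between arrays. A second deposited table holds normalized intensity and served as an alternative. According to the labels, 2 siFxr1 and 2 siControl samples were measured in 2 experiments. Here, log2 values of the corrected intensity of 59305 non-control spots were quantile-normalized, outlier spots were set to missing and spots of a probe averaged, which left 55627 probes. The deposited values hold no read depth, and the 4 arrays limit the precision. The limma 3.58.1 package in R 4.3.3 (lmFit, eBayes) was fitted with the condition as its only term, with Benjamini-Hochberg adjustment over all probes and a threshold of 0.05. The methods name limma, quantile normalization, means of ratios and a B value above 0, and do not state the terms of the model. The B value was read at that limit as well, and the fit of ratios was an alternative.

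A probe was well above background where at least 0.5 of its spots that were not outliers carried the software's mark. Outliers were left out of this share after the data were seen, which decided the siControl array of experiment 1 for Mmp9, where 4 of 9 spots were marked. A gene was read at its brightest measured probe, and further probes are named where the sign differs or the log2 difference differs by over 0.5. Values on every array are given for 8 genes chosen for their role, for genes 2-fold apart in both experiments and for the 6 that differ most between experiments. The members and lists were chosen with earlier results of these data known. Probe positions were taken from the array annotation (mm9), and all 47 probe accessions gave the same symbol in RefSeq.

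Because the replicate numbers mark experiments that shared a slide by the labels, they pair the samples. Arrays of an experiment correlated at 0.981 and 0.976, arrays of a condition at 0.965 and 0.961, and deviations from the condition means at 0.714 between paired samples. The fits were tested on simulated data. The fit with the block found the probes made to differ, which had been shifted by a large set amount under noise equal for all probes. On the measured arrays, that fit did not call Fxr1, so that the simulation does not show what it can find here. The fit without the block found the shifted probes only where the experiments did not differ, and called none once the measured difference between them was put in. Alternatives were scaling to the 75th percentile, normexp (offset 50), the intensity without background correction, the authors' table, the mean over a gene's probes, a filter on dim probes, the replicate block, the 4 siFxr1 over siControl ratios as observations, and each array left out in turn. A restriction to genes well above background on all 4 arrays was added after the data were seen.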

Additional observations from a re-analysis of the deposited data

How the results depend on the processing

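With the experiment as a replicate block, 0 probes were called, as in the fit without it. The block joined with a filter on dim probes called 280 probes at an adjusted p under 0.05 and 354 at a B value above 0, with 0 of the family. In that limma fit, the adjusted p was 0.0689 for Mmp9, 0.0704 for Adam17, 0.0743 for Timp3 and 0.0793 for Mmp15. It was 0.146 for Timp1 and between 0.568 (Adam10) and 0.982 (Mmp2) for the other genes chosen for their role. Mmp9 passed this filter only through the siFxr1 arrays. The 4 ratios taken as observations called 1064 and 1107 probes, 1 of the family by each rule. That probe was Timp1, with an adjusted p of 0.0386, but these ratios share arrays, so that the fit understates the error. The values of single genes under these last settings were read after the data were seen. Between the experiments, scaling to the 75th percentile called 5842 probes, 2 of the family, and the filter on dim probes 5470, again 2. These were Mmp13 (-1.41, adjusted p = 0.038) and Adamts10 (-2.29, adjusted p = 8.05e-05) under the scaling, and Adamts10 (-1.90, adjusted p = 0.0311) and the dimmer Adam17 probe (1.26, adjusted p = 0.0461) under the filter. The cause of these gains was not tested.

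The median log2 difference of the measured genes was 0.34 with the 75th percentile, 0.21 with normexp, 0.20 with no background correction, 0.21 with the authors' table and 0.25 over the genes well above background on all 4 arrays. The number of genes at least 2-fold lower in both experiments was 0 with normexp, with no background correction, with the authors' table and with the mean over probes. The sign of Mmp2 turned under normexp (0.08), no background correction (0.10) and the authors' table (0.10).

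With each array left out in turn, 0 probes were called by either rule. The median ranged from 0.21 to 0.37, Mmp2 from -0.33 to 0.29, Mmp14 from -0.41 to 0.56, Timp2 from -0.15 to 0.30 and Adam12 from -0.05 to 0.84, each changing sign apart from the median. Mmp9 ranged from 3.0 to 5.10, Timp1 from 0.77 to 0.95 and Adam17 from -1.62 to -0.98, with their signs kept. With the siControl signals of Mmp9 at background, the size of its difference cannot be set by these arrays.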
